A study of Mus musculus with 6 samples.

Results

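The RNA binding proteins that regulate pre-mRNA splicing were examined in cells captured from the ganglion cell layer of the retina, at 6 hrs after a crush of the optic nerve. They were taken by gene symbol and comprise the hnRNP genes, the SR proteins with Tra2a and Tra2b, and the Ptbp, Rbfox, Celf, Elavl, Nova and Mbnl families. Of 15103 genes measured by a probe set with a single symbol, 52 were members, covered by 171 of the 45101 probe sets. Each gene was read from its brightest probe set, the one with the highest mean intensity over the 6 arrays. The 52 were counted after an intensity filter, a mean of at least 40, which 14 of the 171 probe sets did not pass. A gene with all its probe sets under this filter would not be among the 52. A further 7 probe sets carry the symbol of Hnrnpa1 or Hnrnpa3 together with other symbols and were left out. Hnrnpa3 and Srsf7, for which no probe set with that symbol alone was used, were not analysed here.

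The arrays came from male C57BL/6J mice. In 3 crushed eyes the axons of the optic nerve had been pinched for 10 sec, and the 3 control eyes were the uninjured contralateral eyes. No transgene and no drug treatment is stated for these mice. About 6000 cells of the ganglion cell layer were cut from each eye by laser capture, and the amplified RNA of each eye was put on its own array. Besides the retinal ganglion cells (RGCs), whose axons form the optic nerve, such a capture takes in other neurons, glia and blood vessels. Of 12 listed RGC markers, 11 were measured, all with a mean intensity of at least 972, while 7 of 8 rod markers were also present, with means of at least 2585. The captured material was thus not RNA of RGCs alone, and lower RNA per cell cannot be told apart from fewer cells of a type.

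Most pre-mRNAs can be spliced in more than one way, and the choice depends on proteins that bind the transcript near its splice sites. SR proteins mostly promote the use of an exon through its enhancers, and hnRNPs often oppose them by binding silencers. Ptbp, Rbfox, Nova, Celf, Elavl and Mbnl proteins set the neuronal or the developmental pattern of exons, and Rbfox3 (the NeuN antigen) and the neuronal Elavl proteins are common markers of neurons, RGCs included. Many SR and hnRNP genes are known to control their own level by splicing to transcripts that are degraded, so that a gene often has several transcript forms and the probe sets of a gene can measure different ones.

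The values are linear intensities in arbitrary units, and differences are given on the log2 scale as crush minus control, from limma with the eyes paired by number. That same-numbered eyes came from the same mouse is assumed. The levels of different probe sets are not comparable with each other. As a group, the splicing regulators differed little between crushed and control eyes. At an unadjusted p under 0.05, 1 of the 52 genes was higher (Hnrnpa1) and 0 were lower, while 2.76% of all 15103 genes were higher and 2.27% lower. The median log2 difference of the 52 genes was 0.0208, against -0.0197 for all genes, with 28 members above 0 and 24 below. The difference lay within 0.1 of 0 for 36 members (69.2%), against 38.9% of all genes and 51.3% of the 5927 genes with a mean intensity of at least 1000. Of the members 43 were in that bright class, so that the smaller differences go together with a higher intensity, whose part was not tested. The median of the mean intensity was 4268 for the 52 members and 2394 for the bright class, so that this class was not matched to them in intensity. The 95% intervals of 34 members lay wholly within 0.5 of 0, and the median distance from a member's estimate to its bound was 0.369, so that smaller changes were mostly not detectable with 3 pairs. No probe set passed an adjusted p under 0.05 with limma, where 2546 of 33169 (7.68%) had an unadjusted p under 0.05, with 5.16% higher and 2.51% lower. With the methods' paired t-test 0 passed as well and 5.04% had an unadjusted p under 0.05.

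**Figure D1:**
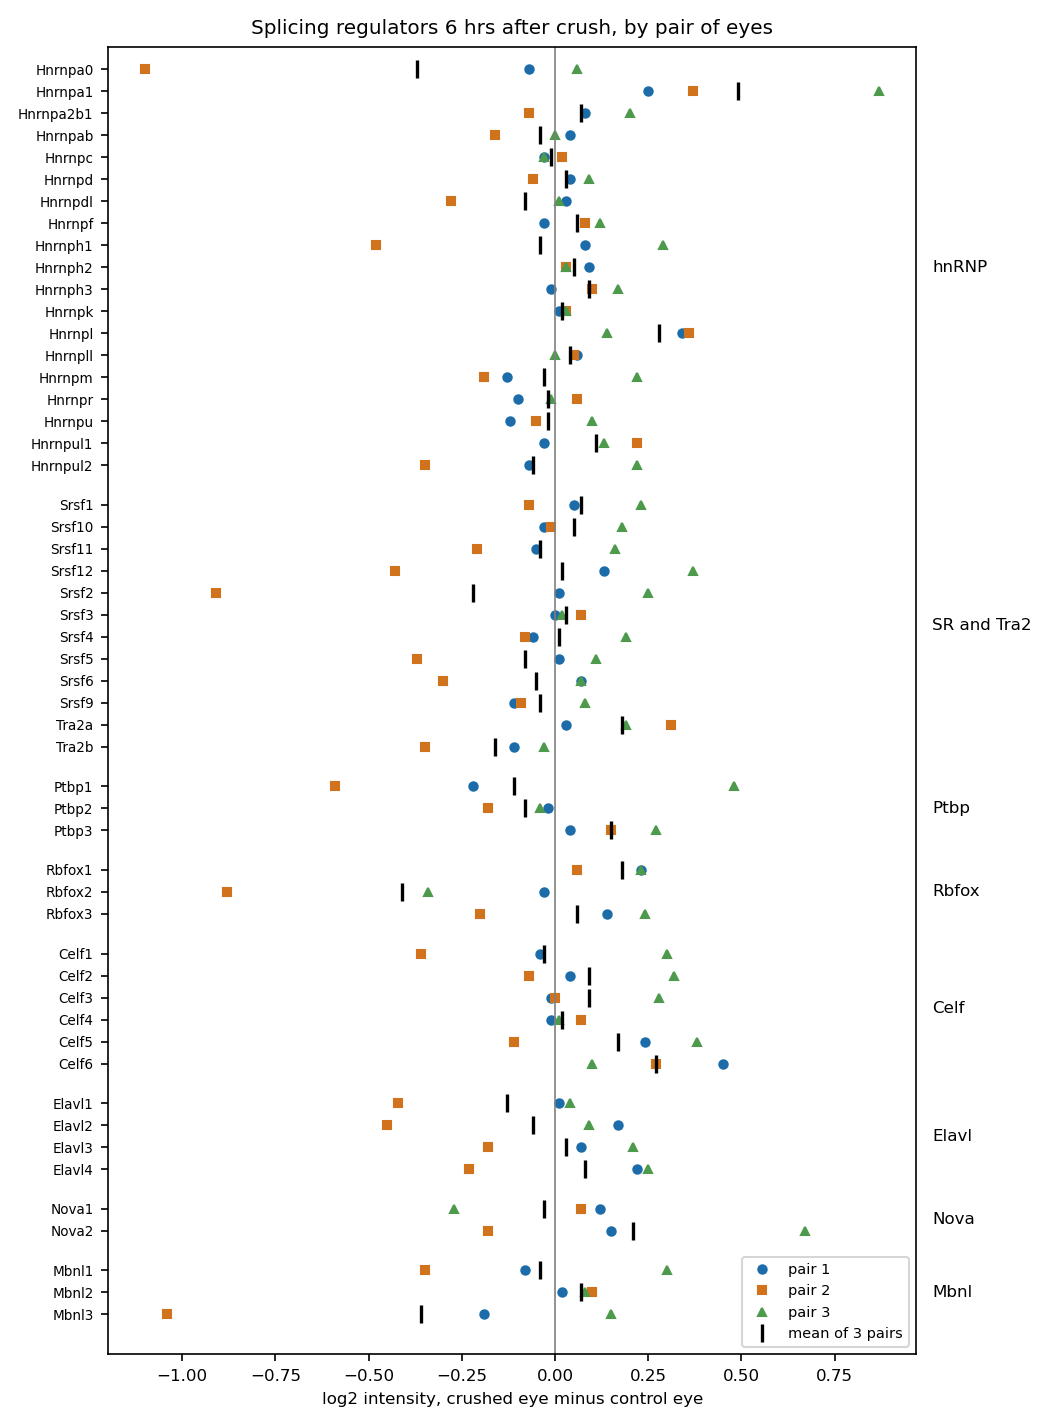
Log2 difference in intensity, crushed eye minus control eye of a pair, for the brightest probe set of each of 52 splicing regulators, by family. Coloured symbols are the 3 pairs of eyes, bars are their mean, and the vertical line marks no difference. Pair 2 holds the lowest values, for Hnrnpa0 and Mbnl3. In pair 3, 45 of 52 genes lie above 0 (86.5%), against 57.2% of all genes.

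The pairs differed more from each other than the groups did. In pair 1 the median of the 52 genes was 0.0106 with 30 above 0, in pair 2 it was -0.0834 with 18 above 0, and in pair 3 it was 0.144 with 45 above 0. Over all genes the pair medians were 0.0136, -0.101 and 0.0439. The shares above 0 in pairs 1 to 3 were 57.7%, 34.6% and 86.5% of the members, against 53.1%, 38.9% and 57.2% of all genes. The array of crush eye 2, which stood apart from the others on the first principal component (44.2% of the variance), gave the lowest of the 6 values for 20 members (38.5%), against 36.5% of all genes. The array of crush eye 3, which stood apart on the next component (27.8%), gave the highest for 20 members (38.5%), against 26% of all genes. Without pair 2 the median of the members was 0.0695 and without pair 3 it was -0.0212. Of the members 11 were higher in all 3 pairs (21.2%) and 3 were lower in all 3 (5.77%), against 15.2% and 15% of all genes.

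Hnrnpa1, which encodes a core hnRNP that antagonizes SR proteins at many exons, was the member past the unadjusted threshold. Its intensity was 1661, 1823 and 1409 in control eyes 1 to 3 and 1972, 2349 and 2568 in the crushed eyes. Every crushed eye lay above every control eye, with the largest gap of the 3 pairs in pair 3. The crushed eyes averaged 2296 ± 302 and the control eyes 1631 ± 208 (SD over 3 eyes per group), which on the log2 scale is a difference of 0.49 (standard error 0.18, 95% interval 0.05 to 0.94, unadjusted p = 0.0364, adjusted p = 0.642 from limma). This probe set also met the study's thresholds for size, a fold over 1.2 and an intensity difference over 80, which together with limma's p limit 2.19% of all genes met. With the methods' paired test it was not past the threshold. Another probe set of Hnrnpa1 had 1415, 1453 and 1172 in controls and 1377, 1468 and 1836 after crush, and the dimmest had 81.0, 107 and 106 against 90.4, 84.8 and 278. On both of these the crushed eye stood well above its control in pair 3 alone, and their log2 differences were 0.21 and 0.41, neither past the threshold. The call on the brightest probe set was lost without any 1 of the 3 pairs (0.62 without pair 1, 0.56 without pair 2 and 0.31 without pair 3). The median log2 intensity over the gene's probe sets, taken in each array, gave 0.21, which is the value of the probe set of middle brightness. Rod markers had their highest difference in pair 3 as well, with a median of 0.751 there and a summed intensity of 31585 to 53896 in controls and 43104 to 48800 after crush, over 7 of 8 listed genes, all above 0 and 0 called. Muller cell markers were below 0 for 8 of 8 genes, with 1 called lower and sums of 41814 to 46790 in controls and 39935 to 42349 after crush, and bipolar cell markers for 6 of 6 measured, with 3 called lower and sums of 13400 to 15766 and 10836 to 12925. Amacrine cell markers were below 0 for 7 of 8 genes, with 0 called. Astrocyte markers were below 0 for 2 of 4 measured, with Gfap called higher (0.85) and Aqp4, also a listed Muller cell marker, called lower. RGC markers were below 0 for 7 of 11, microglia markers for 2 of 5 and endothelial markers for 3 of 5, with 0 called. Over all genes 45.7% were above 0, 2.76% were called higher and 2.27% lower. The part of these markers in the value of Hnrnpa1 was not tested. Hnrnpa1 has near-identical pseudogene copies, and the signal cannot be assigned to the gene alone with certainty.

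The 250 bases before the start of Hnrnpa1 (RefSeq, mouse build GRCm38.p6) are printed because this was the gene called, with CCAAT and the GC box GGGCGG, searched on both strands, in capitals.
Hnrnpa1, chr15:103240147-103240396, + strand: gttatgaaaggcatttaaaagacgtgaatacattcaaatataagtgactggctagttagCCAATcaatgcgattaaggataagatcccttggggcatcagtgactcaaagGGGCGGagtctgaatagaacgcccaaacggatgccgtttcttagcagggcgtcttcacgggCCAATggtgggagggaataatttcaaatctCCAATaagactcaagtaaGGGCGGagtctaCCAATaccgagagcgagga
This window holds CCAAT 4 times and GGGCGG 2 times. Windows of this length were found for 47 of the 52 members (84 windows, since 14 genes have more than 1 start). CCAAT was present in 47.6% of them and GGGCGG in 63.1%, against 34.5% and 51.8% of 15377 windows of the genes tested here and 33.8% and 32.7% of all 32817 windows. The members' windows had a median of 18 CG dinucleotides, against 13 for the genes tested here. These are matches of letters and not sites of binding.

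The other 18 hnRNP genes had log2 differences from -0.37 (Hnrnpa0) to 0.28 (Hnrnpl), and over the 19 genes 10 were above 0. Hnrnpk, which binds C-rich RNA and DNA, was flat, with 11440, 11515 and 11640 in control eyes and 11519, 11722 and 11877 in crushed eyes, a log2 difference of 0.02 (95% interval -0.31 to 0.36). Hnrnpl, which binds CA repeats, had 204, 245 and 231 in controls and 258, 315 and 253 after crush, so that the groups did not overlap, although its log2 difference of 0.28 had an unadjusted p of 0.1 from limma. In all, crushed eyes lay above all control eyes for 3 members (Hnrnpa1, Hnrnpl and Tra2a) and below them for 0, against 5.69% and 5.32% of all genes (7.29% and 5.25% of all tested probe sets), and 3 of 52 is close to that background. Hnrnpa0, an hnRNP that binds AU-rich RNA, had 5590, 6042 and 4795 in controls and 5313, 2825 and 4986 after crush. Its low mean rests on crush eye 2, and without pair 2 the log2 difference was -0.01. On their brightest probe sets the remaining hnRNP genes lay between -0.08 and 0.11. Over all tested probe sets some ranged more widely, as Hnrnpr (-0.54 to 0.31) and Hnrnpu (-0.40 to 0.34), while others such as Hnrnpc did not (-0.07 to -0.01).

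Among the SR proteins and Tra2 genes 6 of 12 were above 0 and 6 below on the brightest probe sets, and 0 were called. Srsf11, an SR protein that interacts with early spliceosome components, had 6071, 6280 and 6086 in controls and 5847, 5428 and 6781 after crush, with overlapping groups. Srsf3, the smallest SR protein, which also acts in mRNA export, had 5905, 5761 and 5681 in controls and 5912, 6051 and 5751 after crush. Its log2 difference was 0.03 (95% interval -0.31 to 0.37). Srsf2 (SC-35, a marker of nuclear speckles) had 2776, 3371 and 2387 in controls and 2787, 1795 and 2835 after crush, so that only crush eye 2 was low, and its difference of -0.22 became 0.13 without pair 2.

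Dimmer probe sets of the same genes did not always go with the brightest one. Besides the brightest ones, 105 probe sets of the members were tested, and 4 of them had an unadjusted p under 0.05 (3 above 0 and 1 below), or 3.81%, against 8.18% of all such probe sets of all genes. The share is below the background. The 4 are described because values per eye were given for every member with another called probe set, and all belong to SR or Tra2 genes. Only 1 of the 52 brightest probe sets was called, so that a call on a dimmer probe set alone does not set these genes apart. Of the 35 members with more than 1 tested probe set, 28 had probe sets in both directions, with a median range of 0.324 within a gene. The median size of the difference was 0.229 for the 52 probe sets of members under a mean of 500 and 0.0818 for the 105 at or above it, and for all probe sets it was 0.199 and 0.115. Under a mean of 500, 10.4% of all tested probe sets were called and from 500 on 3.2%. With the study's thresholds for size added, 3 probe sets of members passed, those of Hnrnpa1, Srsf3 and Tra2a, against 3.12% of all tested probe sets. These use limma's p, and with the methods' paired test those of Hnrnpa1 and Tra2a were not past the threshold.

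A dimmer probe set of Srsf3 had 364, 383 and 477 in controls and 532, 545 and 682 after crush. The crushed eye was higher by a similar amount in every pair (0.55, 0.51 and 0.51), and the groups did not overlap. Crushed eyes averaged 586 ± 82.7 and control eyes 408 ± 60.6 (SD over 3 eyes per group), which gives a log2 difference of 0.52 (standard error 0.13, unadjusted p = 0.00991, adjusted p = 0.642 from limma). The other 4 probe sets of Srsf3, all brighter, lay between -0.18 and -0.03. Srsf3 and Ptbp2 are on the study's list of changed genes, which was chosen on these same eyes, so that the value of Srsf3 is not independent evidence of a rise. The dimmest probe set of Srsf11 had 69.8, 86.3 and 89.0 in controls and 95.9, 159 and 173 after crush. All crushed eyes lay above all controls, with a log2 difference of 0.77 (95% interval 0.35 to 1.18, unadjusted p = 0.00478, adjusted p = 0.642 from limma), while the intensity difference stayed under 80. Its other probe sets had 0.21 and 0.45, neither past the threshold.

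Tra2a and Tra2b are paralogs that bind GAA-rich exonic enhancers together with SR proteins. The brightest probe set of Tra2a had 3854, 3387 and 3872 in controls and 3935, 4187 and 4418 after crush, so that the groups did not overlap, but the log2 difference of 0.18 was not past the threshold (unadjusted p = 0.267 from limma). A dim probe set had 154, 120 and 151 in controls and 212, 264 and 602 after crush. This is the largest difference among the tested probe sets of the members, 1.2 on the log2 scale (standard error 0.30, 95% interval 0.43 to 1.97, unadjusted p = 0.00986, adjusted p = 0.642 from limma), and it was 0.80 without pair 3. The pairs gave 0.46, 1.14 and 1.99. Of the remaining Tra2a probe sets 2 were above 0 (0.22 and 0.33) and 2 below (-0.16 and -0.30), none past the threshold. For Tra2b the brightest probe set had 4831, 5166 and 3708 in controls and 4488, 4066 and 3624 after crush, a log2 difference of -0.16 with overlapping groups. A dim probe set had 232, 259 and 268 against 177, 168 and 213, lower in every pair, with a log2 difference of -0.45 (95% interval -0.81 to -0.08, unadjusted p = 0.0245, adjusted p = 0.642 from limma). Without any 1 of the 3 pairs it was no longer past the threshold, with -0.51 to -0.36. Its other probe sets were in both directions, at -0.35, 0.39 and -0.36. Each gene was also read from the median log2 intensity of its probe sets in each array. Such a median follows the probe sets of middle brightness and is not the median of the differences above. Tra2a then had 0.74 (unadjusted p = 0.0108 from limma) and Tra2b -0.40 (unadjusted p = 0.0393 from limma), the only members then past the threshold. With this reading 6.67% of all genes were past it, a larger share than 2 of 52.

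**Figure D2:**
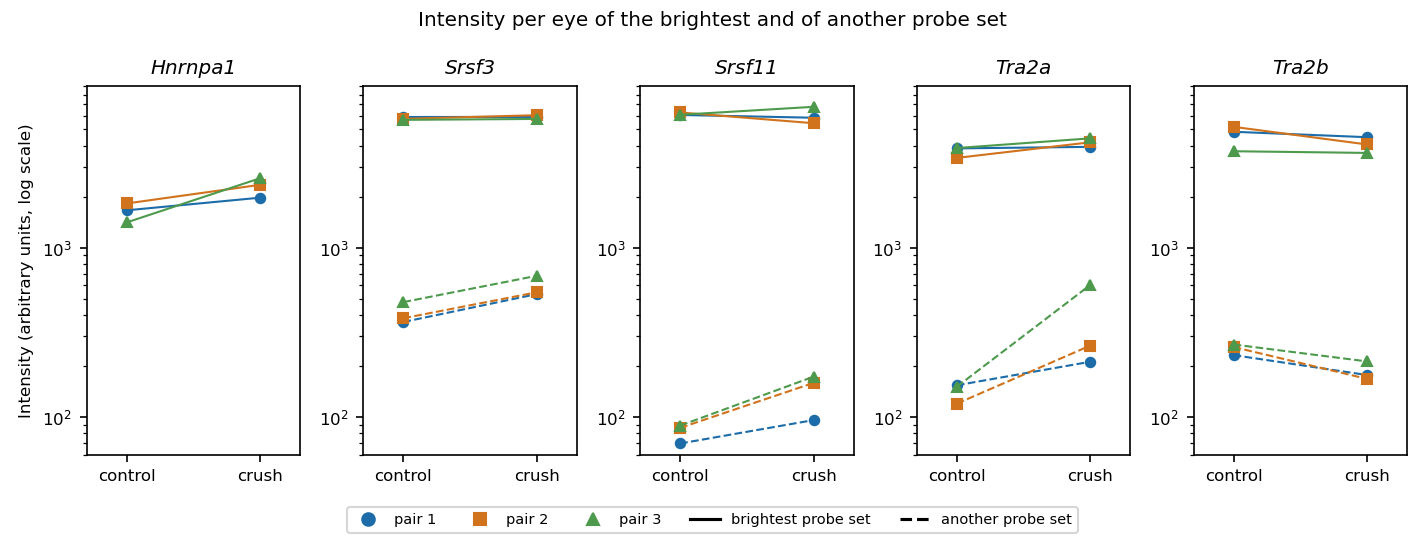
Intensity on a log axis, in arbitrary units, of 5 genes in the control and the crushed eye of each pair, with solid lines for the brightest probe set and dashed lines for another one. For Srsf3, Srsf11 and Tra2a the dashed lines rise in all 3 pairs while the solid lines are nearly flat, and for Tra2b the dashed lines fall.

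The 250 bases before the RefSeq start of the Tra2 genes (GRCm38.p6) are printed since their called dim probe sets went in opposite directions. The other probe sets of both genes went both ways, and a link of these bases to the values was not tested. Capitals mark CCAAT, the GC box GGGCGG, the TATA sequence TATAAA and the shorter site TGACGT on either strand, and the last overlaps the full cAMP response element TGACGTCA.
Tra2a, chr6:49264053-49264302, - strand: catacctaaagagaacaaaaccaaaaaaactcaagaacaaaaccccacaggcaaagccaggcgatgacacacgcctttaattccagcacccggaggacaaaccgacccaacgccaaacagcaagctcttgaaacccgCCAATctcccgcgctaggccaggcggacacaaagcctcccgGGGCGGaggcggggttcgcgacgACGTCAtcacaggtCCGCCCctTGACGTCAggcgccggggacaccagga
Tra2b, chr16:22266006-22266255, - strand: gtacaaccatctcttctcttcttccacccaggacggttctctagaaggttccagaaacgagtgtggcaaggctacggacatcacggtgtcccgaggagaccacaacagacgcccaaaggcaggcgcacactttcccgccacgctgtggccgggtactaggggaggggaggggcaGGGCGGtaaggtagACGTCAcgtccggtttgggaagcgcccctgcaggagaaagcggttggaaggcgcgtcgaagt
The window of Tra2a holds TGACGTCA 1 time, and that of Tra2b holds TGACGT without the full element. TGACGTCA was found in 5 of the 84 windows of members (5.95%), those of Tra2a, Celf3 and Celf6, against 2.25% of the windows of genes tested here and 1.55% of all windows. TGACGT was present in 16.7% of the members' windows, against 8.81% and 6.46%. TATAAA was present in 9.52%, against 7.73% and 12.4%.

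**Figure D3:**
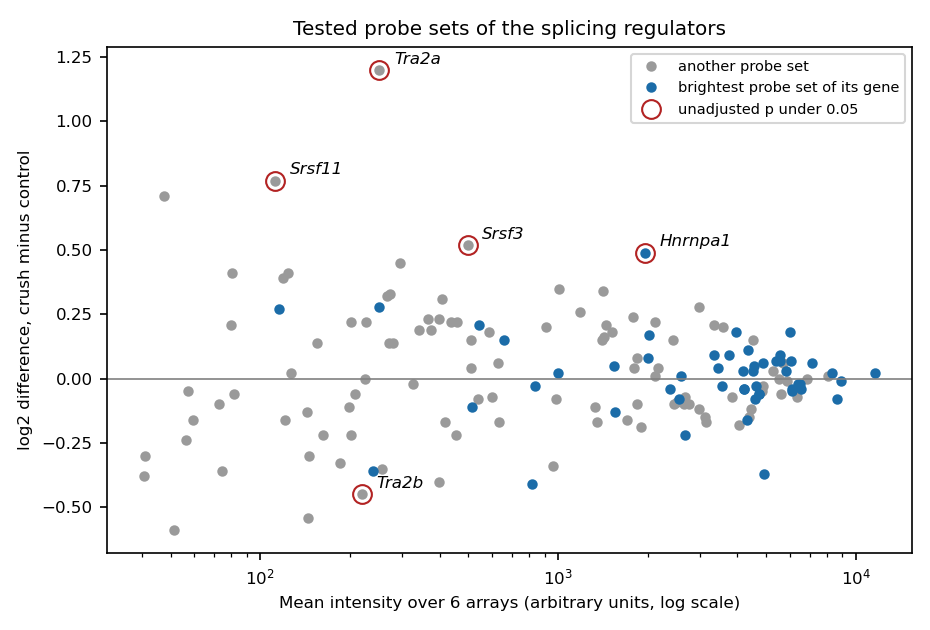
Log2 difference, crush minus control, against the mean intensity over 6 arrays (log axis) for the 157 tested probe sets of the splicing regulators. Blue points are the brightest probe set of each gene and circles mark an unadjusted p under 0.05 from limma. The points spread more at low intensity, and 4 of the 5 circled probe sets have a mean under 500.

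The regulators that mark neurons did not separate crushed from control eyes. Rbfox3 had 4662, 4771 and 4826 in control eyes and 5135, 4167 and 5706 in crushed eyes. The crushed eyes lay on both sides of the controls, with a log2 difference of 0.06 (95% interval -0.33 to 0.46). Elavl2 had 4687, 4483 and 5171 against 5268, 3281 and 5512, and Elavl3 had 4403, 4601 and 4337 against 4614, 4057 and 5027. Elavl4 had 1878, 1952 and 1989 against 2190, 1668 and 2363. Elavl2, Elavl3 and Elavl4 encode the neuronal Hu proteins, which stabilize mRNAs and regulate exons, and on the brightest probe sets all 4 of these genes were higher in pairs 1 and 3 and lower in pair 2. Other probe sets of the Elavl genes did not all show this. In pair 2 the crushed eye was higher by 0.25 on the next brightest probe set of Elavl2, by 0.51 on another of Elavl3 and by 0.26 on another of Elavl4, and none of these probe sets was called. The RGC markers had a summed intensity of 62119 to 64011 in controls, and of 69335, 55206 and 62450 in crushed eyes 1 to 3, so that crush eye 2 was the lowest there too. Such a sum weighs the brightest markers most. In pair 2 the markers had a median log2 difference of -0.244, with Rbpms (0.07) and Tubb3 (0.69) higher and the others lower. Amacrine cell markers had a median of -0.429 in pair 2. Their lowest sum was in crush eye 2 as well, 30868 against 34464 to 39496 in controls. In pair 3 the median was -0.104 for RGC markers and 0.0683 for amacrine cell markers, while the 4 regulators were higher. The part of either set of markers in the values of the neuronal regulators was not tested. Elavl1, the broadly expressed member, had the same order of pairs (0.01, -0.42 and 0.04), so that it was not particular to the neuronal genes. Its log2 difference was -0.13, and 0.02 without pair 2. Rbfox1, a regulator of neuronal exons, had 5372, 5607 and 5887 in controls and 6301, 5863 and 6920 after crush, higher in all 3 pairs with a log2 difference of 0.18 (unadjusted p = 0.252 from limma). The next brightest probe set of Rbfox1 had -0.01, and the remaining ones had -0.09 and 0.22, so that no common direction was seen. Rbfox2, its broadly expressed paralog, had 806, 913 and 1057 against 792, 496 and 835, lower in all 3 pairs. Its log2 difference of -0.41 was the lowest of the 52 genes, was not past the threshold (unadjusted p = 0.0938 from limma) and was -0.18 without pair 2.

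Ptbp1 represses neuronal exons in cells that are not neurons, and Ptbp2 takes its place in neurons. Ptbp2 had 4609, 4567 and 4925 in controls and 4536, 4018 and 4798 after crush. It was slightly lower in all 3 pairs, with a log2 difference of -0.08 (95% interval -0.43 to 0.26), and its other probe set had -0.12. Ptbp2 is on the study's list of changed genes. Its brightest probe set was not past the threshold with the methods' paired t-test either (unadjusted p = 0.24). Which of its probe sets the list holds is not stated here, so that this value does not test the listing. Ptbp1 had 531, 560 and 484 against 456, 373 and 675, lower in pairs 1 and 2 and higher in pair 3, with a log2 difference of -0.11. Ptbp3 had 0.15. None of the 6 tested probe sets of this family was called.

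**Figure D4:**
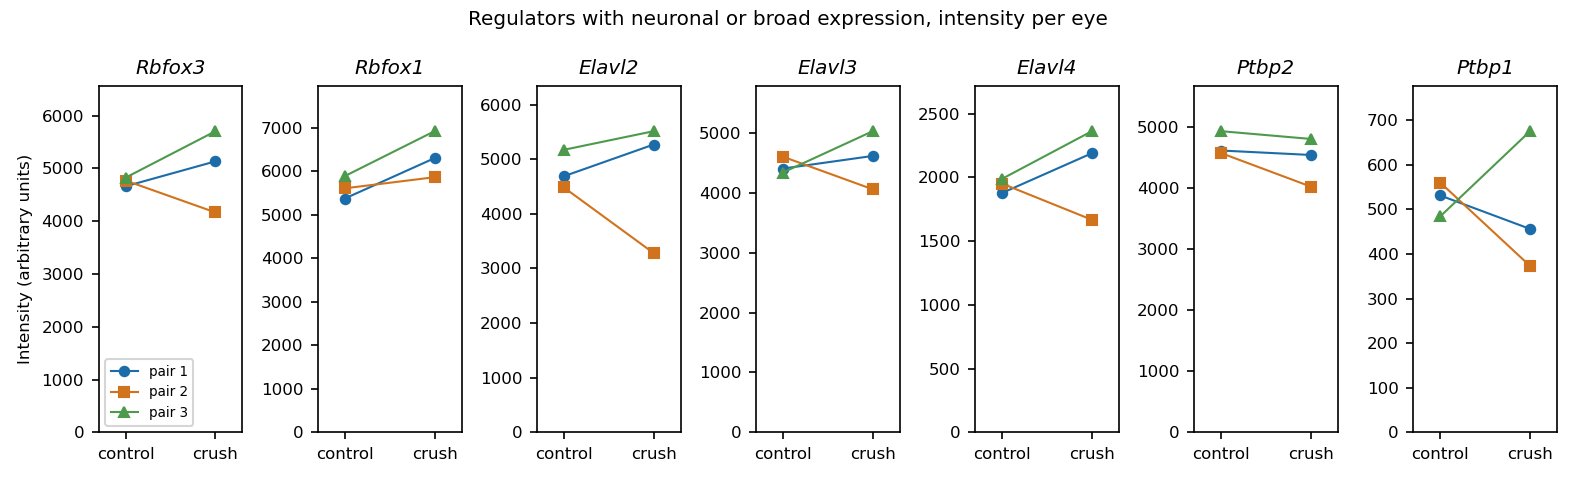
Intensity in arbitrary units, on axes that start at 0, of neuronal and broadly expressed regulators in the control and crushed eye of each pair. Rbfox3, Elavl2, Elavl3 and Elavl4 rise in pairs 1 and 3 and fall in pair 2, while Ptbp2 falls slightly in all 3 pairs.

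The remaining families gave no call. Celf proteins bind GU-rich RNA, and 5 of 6 genes were above 0, with a median of 0.0916. This rested on pair 3, where 6 of 6 were above 0, and without that pair the median was 0.00979 with 3 of 6 above 0. Celf4, a neuronal member, was flat at 8279, 8133 and 8327 in controls and 8198, 8515 and 8372 after crush. Celf6 had the highest value of the family, 0.27 (unadjusted p = 0.12 from limma). Nova1, a regulator of inhibitory synapse transcripts, had 832, 866 and 814 in controls and 904, 911 and 675 after crush, while Nova2 had a log2 difference of 0.21 that rested on crush eye 3, with -0.01 without pair 3. Mbnl proteins promote the adult pattern of exons. Mbnl2 had 5763, 5153 and 5343 against 5832, 5531 and 5656, with overlapping groups and a log2 difference of 0.07. Mbnl3 had -0.36 and again rested on crush eye 2, with -0.02 without pair 2. Another probe set of Mbnl3 had 0.21, and those of Mbnl2 ranged from -0.30 to 0.22.

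Other genes of the splicing machinery were read from the same fit. Of 34 core spliceosome genes 1 was higher (Snrnp70) and 0 were lower, with a median of -0.0111. Snrnp70, a protein of the snRNP that binds the donor splice site, had 300, 265 and 448 in controls and 354, 463 and 797 after crush, higher in all 3 pairs but with overlapping groups. Of 19 SR-related and exon junction proteins 1 was higher and 0 lower, namely Srrm2, a scaffold of nuclear speckles, with 4037, 3754 and 4264 in controls and 4667, 4916 and 6931 after crush. Its groups did not overlap, and the log2 difference was 0.43 (unadjusted p = 0.0398, adjusted p = 0.642 from limma). None of the 10 genes for SR protein kinases and their partners was called, with a median of 0.0255. Of 33 other RNA binding regulators, Taf15, an RNA binding protein of the FET family, was higher (0.72) and Raver1, a partner of Ptbp1, was lower (-0.46), and both probe sets were dim. These 4 calls among 96 genes were close to the background of 5.03% of all genes.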

How the data were processed

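Mouse Affymetrix Mu430 v2.0 arrays were used, 1 per eye. The authors calculated a linear intensity per probe set in dChip with invariant set normalization and the PM/MM model, and these intensities are the deposited values. A floor of 16 was applied before log2. Without 64 control probe sets, those averaging 40 or more over the arrays (33169) entered limma 3.58.1 (R 4.3.3), eye number as a block, with Benjamini-Hochberg adjustment. Same-numbered eyes deviated together (correlations of 0.154, 0.125 and 0.297), although crush eye 1 and control eye 2 also reached 0.131. The controls are contralateral eyes, but no label states which animal each eye came from, so that pairing by number is an assumption. Symbols came from the platform annotation (34958 probe sets with 1 symbol, 932 with several, 9211 with none).

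All member genes were accounted for. Values per eye were given for called members, the brightest of each family, Ptbp2 and Srsf3, markers of neurons and members with another called probe set, and the other named members were added after their values were seen, as was the intensity limit of 500. The members, lists and rules were chosen with earlier results of these data known. The fit was tested on simulated arrays of 33169 probe sets for this comparison, where 56% of log2 changes of 0.5 and 96% of those of 1 had an unadjusted p under 0.05 and 0% an adjusted one, so that a count of 0 adjusted calls does not show that nothing changed. Intervals are limma's, at 95%. The number of arrays limits the precision.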

Additional observations from a re-analysis of the deposited data

How the results depend on the processing

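The count of members called higher was 1 in most settings and that called lower was 0. It was 0 higher with the methods' t-test and 0 without any 1 of the pairs. With the median log2 intensity of each gene's probe sets 1 was higher and 1 lower, where 6.67% of all genes were called. Over the settings 3.29% to 8.02% of all genes were called. The gene behind the count changed. With a floor of 64 or no intensity filter it was Hnrnpl in place of Hnrnpa1 (0.49 in both, unadjusted p = 0.0569 and 0.0719 from limma), and without the array of crush eye 3, unpaired, it was Celf6, with Hnrnpa1 at 0.41. With no pairing block the count was again 1 higher and 0 lower, the median was 0.0208 and Hnrnpa1 was the gene. The median over members ranged from -0.0235 to 0.0695 and was below 0 without pair 3 and without the array of crush eye 3. With the methods' paired test, a model of 1 probe set at a time, the dim probe sets of Srsf11 and Tra2a were not past the threshold, at differences of 0.80 and 1.34, whereas those of Srsf3 and Tra2b were, and without an intensity filter that of Tra2a was not (unadjusted p = 0.0654 from limma). The call of that of Srsf3 was also lost without pair 1, at 0.51, and without the array of crush eye 3, at 0.41, as was that of Srsf11, at 0.60. Without pair 3 that of Tra2a moved from 1.2 to 0.80 and without the array of crush eye 3 to 0.75. With the prior made robust and tied to intensity 1 probe set of all passed an adjusted p under 0.05, no member. The causes were not tested.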
